A study of Mus musculus with 8 samples.

Results

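The genes Apoe, Spp1, Gpnmb, Lgals3, Itgax, Cd9, Cd63, Lpl, Csf1 and Ank, known from microglia in injured or degenerating neural tissue, were followed by symbol through 8 messenger RNA sequencing libraries. They are 10 of 22549 gene symbols with a usable estimate in the tables. Microglia are the resident macrophages of the nervous system. After injury or neuron death they switch on a programme of lipid handling, lysosomal and surface proteins, and several of these genes are also used by macrophages that come from blood monocytes. In that programme Apoe and Lpl handle lipid, Spp1, Lgals3 and Csf1 are secreted or extracellular proteins, Itgax and Gpnmb are membrane glycoproteins, Cd9 and Cd63 are tetraspanins, and Ank exports phosphate compounds from the cell.

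Microglia 1 to 4 and infiltrating macrophages 5 to 8 were profiled from mouse retina, and the numbers are those in the library titles. Every library came from mice with the genotype Msi1-CreERT2/+; R26R-DTA/+, in which a tamoxifen-inducible Cre driven from the Msi1 locus switches on diphtheria toxin A. The mice were of mixed C57BL/6 and 129 background, about 5 months old, and the retina was taken on day 7 after injury, so both populations come from injured tissue and an uninjured reference was not analysed here. The sources used here do not say how the cells were separated, what GFP in the macrophage titles marks, or whether libraries came from separate animals or pools. Each p-value is thus set against library-to-library spread alone, and that spread may be technical. The labels say that RNA was harvested from retinas with Sepazol.

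Levels are given as FPKM, a fragment count divided by transcript length and by sequencing depth, which can be compared between genes. The FPKM sum ran from 207077 in macrophage 7 to 512049 in macrophage 6, with microglia between 295881 and 392753. By an approximate estimate, 1 fragment on 1 kilobase of transcript equals 0.0857 FPKM in microglia 1, the shallowest library, and 0.0417 to 0.0521 FPKM in the others. Microglia 2 held the fewest genes at 1 FPKM or more, 5992 against 8165 to 10282 elsewhere. Y-linked transcripts summed to between 11.7 and 25.8 FPKM in microglia 1 to 3 and to at most 1.97 in the other 5 libraries. Xist, a transcript of the inactive X chromosome of female cells, was at most 0.000779 FPKM in microglia 1 to 3. In the other 5 libraries Xist was at 4.78 to 7.94 FPKM. Sex-linked expression thus nearly follows population, and their parts in a difference cannot be fully told apart. Microglia 4 is the one microglial library on the macrophage side of that split, and its values are given beside those of the others. Defining markers matched the labels in part: Sall1, a transcription factor of microglia, was at 8.61 FPKM or more in microglia and reached 0.0352 in macrophages, while the monocyte receptor Ccr2 was at 1.53 or less in microglia but at only 2.64 in macrophage 7, against at least 49.0 in the other macrophage libraries.

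Promoter sequence is shown for Itgax and Cd9, the members that passed the test below, in opposite directions. The 250 bases before the RefSeq transcription start are given 5′ to 3′ on the gene's own strand. They were taken from RefSeq's GRCm38.p6 annotation and found once each, letter for letter, in the mm9 build used by the tables. Itgax lies at chr7:135272814-135273063 on the plus strand and Cd9 at chr6:125444779-125445028 on the minus strand. Capitals mark the match to a searched motif.
Itgax: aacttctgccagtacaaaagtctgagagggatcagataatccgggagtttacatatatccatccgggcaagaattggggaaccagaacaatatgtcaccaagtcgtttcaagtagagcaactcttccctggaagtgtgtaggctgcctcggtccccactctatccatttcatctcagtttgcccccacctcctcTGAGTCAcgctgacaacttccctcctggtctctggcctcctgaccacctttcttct
Cd9: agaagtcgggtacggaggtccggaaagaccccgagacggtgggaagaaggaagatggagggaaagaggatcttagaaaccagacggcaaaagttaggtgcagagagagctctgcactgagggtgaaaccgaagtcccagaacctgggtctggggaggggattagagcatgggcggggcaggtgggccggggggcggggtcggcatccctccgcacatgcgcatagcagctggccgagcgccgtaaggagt

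A set of 3 short motifs was searched on both strands of these windows: the E-box CACGTG, the AP-1 site TGANTCA and the PU.1 core GAGGAA. Itgax held 1 AP-1 match, starting 56 bases before the transcription start, and Cd9 held none of the 3 motifs. AP-1 matches are present in 6.75% of 32851 promoter windows of this length, E-boxes in 6.02% and PU.1 cores in 23.3%. A promoter was found for 9 of the 10 members. PU.1 cores were in 1 or more windows of Apoe, Spp1, Cd63 and Ank, and none of the 12 member windows held an E-box. Base composition differed widely: the Ank window was 81.2% G and C with 49 CpG pairs, Cd9 61.6% with 16, Itgax 50% with 5, and the first Spp1 window 43.6% with 3, against medians of 52.4% and 6 over all windows. A match is a description of the letters and no evidence of binding.

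The question was how far macrophages that had entered the retina carried these transcripts at the same time as resident microglia. The members did not move as 1 group. Itgax was higher and Cd9 was lower in macrophages by limma across all genes (adjusted p below 0.05), and the other 8 did not pass. Thus 2 of 10 members were called, against 2.34% of the 9352 genes tested. All 10 entered the test, which required at least 1 FPKM in at least 4 libraries. Log2 fold changes, macrophage over microglia after adding 1 to each FPKM, were positive for 5 members and negative for 5. Over all tested genes 67.1% were positive. The median of the members was 0.29 against 0.37 over all tested genes. An unadjusted p below 0.05 was reached by 8 members, against 15.0% of tested genes. The levels of the 2 populations did not overlap for 4 members, Itgax, Cd9, Csf1 and Ank, against 7.63% of tested genes; 1 was higher (5.69% of tested genes) and 3 were lower (1.95%). Across other fits, 2.34% became 0.244% with no filter on low values, 3.42% with quantile normalization, 0.267% with the Y-linked term and 1.70% without microglia 2 and 3, and without microglia 1 to 4 and macrophages 5 to 8 in turn it was 1.64%, 2.31%, 1.74%, 2.94%, 0.969%, 1.26%, 2.02% and 0.908%. The members were proposed with earlier results of these data in view, so these counts are a description. In bulk RNA, fewer cells of a type and less RNA per cell cannot be told apart.

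**Figure D1:**
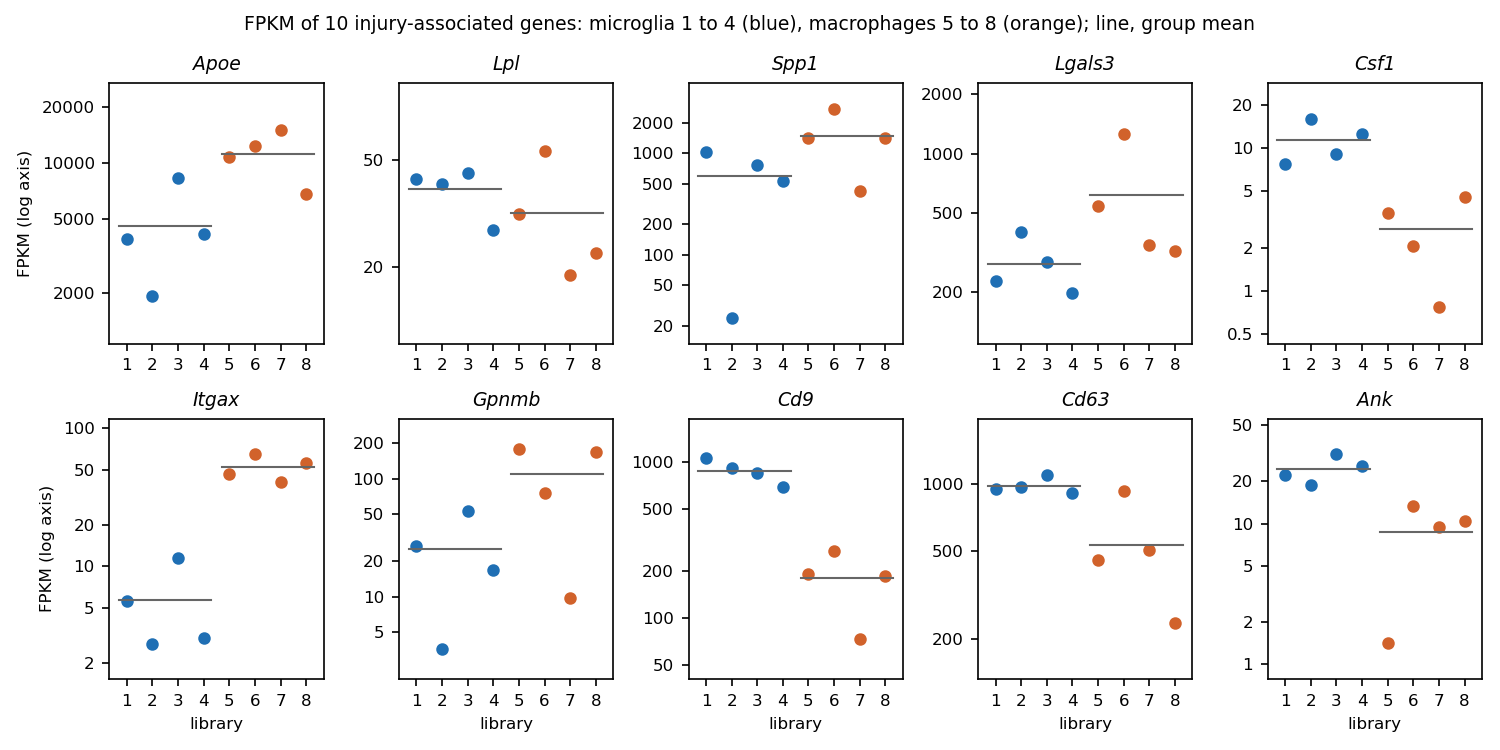
FPKM of each gene in each library on a log axis, with microglia 1 to 4 in blue, macrophages 5 to 8 in orange and a line at each group mean. Itgax, Cd9, Csf1 and Ank show no overlap between the populations, and the low Spp1 and Gpnmb points are microglia 2 and macrophage 7.

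**Figure D2:**
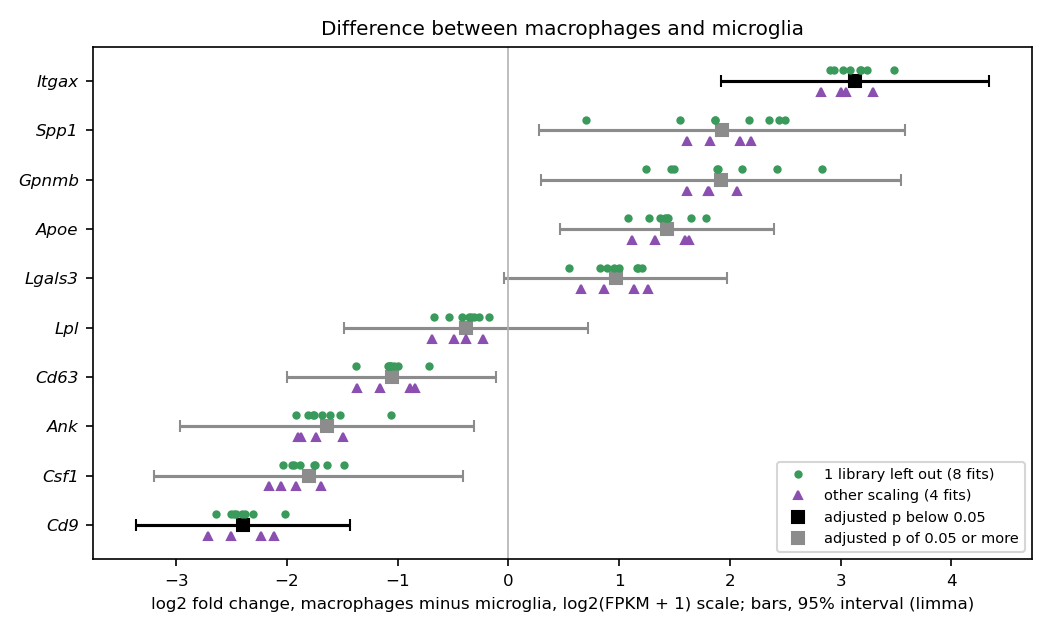
Log2 fold change of each gene (squares) with its 95% interval from limma, black where the adjusted p was below 0.05. Green circles are the 8 fits with 1 library left out and purple triangles the 4 other scalings, and none of these points lies on the other side of 0 from its square.

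Apoe encodes apolipoprotein E, the main lipid carrier of nervous tissue, which delivers cholesterol to cells through receptors of the LDL receptor family. It stood at 3903, 1915, 8365 and 4130 FPKM in microglia 1 to 4 and at 10764, 12306, 15033 and 6852 FPKM in macrophages 5 to 8. It was the most abundant transcript of macrophages 5, 6 and 7 and the 2nd of macrophage 8, and ranked between 4 and 19 in microglia. The populations overlapped through microglia 3, which exceeded macrophage 8. Apoe's share of the FPKM sum was 0.549% to 2.13% across microglia and 2.40% to 7.26% across macrophages, with no overlap. The log2 fold change was 1.43 ± 0.47 (SE), with a 95% interval of 0.47 to 2.39, and did not pass (limma adjusted p = 0.123; range 0.0062 to 0.909 over 21 alternatives). It passed after rescaling to an equal sum (adjusted p = 0.0375), where 3.58% of tested genes were called.

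Lpl encodes lipoprotein lipase, which releases fatty acids from lipoproteins. It stood at 42.6, 40.9, 44.8 and 27.5 FPKM in microglia and at 31.5, 53.9, 18.6 and 22.5 FPKM in macrophages. Macrophage 6 was the highest library of all and the groups overlapped. Its log2 fold change of -0.38 had a 95% interval of -1.48 to 0.72 (limma adjusted p = 0.789). Between the macrophage libraries the level varied 2.89-fold, which came down to 1.17-fold once libraries were rescaled to an equal FPKM sum. Of 19 lipoprotein receptors, lipid exporters and lipase regulators fixed as partners of Apoe and Lpl, 12 were tested and 0 were called by limma. An unadjusted p below 0.05 was reached by 3 of the 12 (15.0% over all tested genes). The median of the 12 log2 fold changes was 0.21. The most abundant tested partner was Apoc2, the activator of lipoprotein lipase, at 41.5 ± 40.9 FPKM for microglia and 118 ± 62.0 for macrophages (SD, n = 4 each; limma adjusted p = 0.144). Gpihbp1, which anchors the lipase to capillary walls, was listed at 0 in all 8 libraries.

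Spp1 encodes osteopontin, a secreted phosphoprotein that binds integrins and CD44. Its levels were 1036, 24.0, 770 and 535 FPKM in microglia and 1404, 2730, 420 and 1405 FPKM in macrophages. Microglia 2 stood apart: Spp1 ranked 1874 there and between 32 and 76 in the other microglia, a 43.1-fold range within the group. Its log2 fold change was 1.93 ± 0.80 (SE; 95% interval 0.28 to 3.58; limma adjusted p = 0.256), and it was 0.70 without microglia 2 (adjusted p = 0.7). Microglia 1, 3 and 4 lay between macrophage 7 and the other macrophages.

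Lgals3 encodes galectin-3, a lectin that binds galactose-containing glycans on damaged membranes and dying cells. It stood at 227, 402, 284 and 198 FPKM in microglia and at 542, 1260, 344 and 324 FPKM in macrophages. Microglia 2 exceeded macrophages 7 and 8, and macrophage 6 was more than all others. The difference, 0.97 ± 0.49 on the log2 scale (95% interval -0.04 to 1.98), did not pass (limma adjusted p = 0.356), and it was 0.55 without macrophage 6 (adjusted p = 0.574). After rescaling to an equal sum the populations no longer overlapped and the difference passed (1.13, adjusted p = 0.0362). Among 12 tested osteopontin receptors and galectins, 1 was called higher (1.65% over all tested genes) and 0 lower, with a median log2 fold change of 0.57. That gene was Itga4, the alpha4 integrin subunit, at 0.0625, 0.0859, 0.0373 and 0.564 FPKM in microglia and 2.90, 7.02, 1.62 and 8.04 in macrophages (limma adjusted p = 0.0385). Itga4 met the filter only through the macrophages, so it had no test with a macrophage library left out. The call was lost with no filter (adjusted p = 0.302), a pseudocount of 0.1 (0.0775), the trend option off (0.0658) and quantile normalization (1.28, 0.211). It was also lost with the Y-linked term (1.60, 0.9999). Without microglia 1, 2 or 3 (0.0959, 0.0519 and 0.0914) or microglia 2 and 3 together (0.13) it was lost as well.

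Csf1 encodes colony-stimulating factor 1, which acts through the receptor CSF1R to keep macrophages alive. It stood at 7.79, 15.9, 9.12 and 12.5 FPKM in microglia and at 3.53, 2.08, 0.771 and 4.53 FPKM in macrophages, where it was the lowest member in every library but macrophage 5, in which Ank was lower. All 4 microglial libraries exceeded all 4 macrophage libraries. The log2 fold change was -1.80 ± 0.68 (SE; 95% interval -3.20 to -0.41) and did not pass over all genes (limma adjusted p = 0.202), while an exact permutation test of Csf1 alone, two-sided, gave p = 0.0286, the smallest that 4 against 4 libraries allow. Lack of overlap by itself fixes that p, and 7.63% of tested genes had no overlap. In macrophage 7, where Csf1 was lowest, 1 fragment per kilobase of transcript equals about 0.0429 FPKM. Of 8 receptors and ligands of this family 5 were tested and 0 were called by limma, with a median of 0.37. An unadjusted p below 0.05 was reached by 1 of the 5 (15.0% over all tested genes). Csf1r itself was at 293 ± 64.4 FPKM for microglia and 243 ± 79.4 for macrophages (SD, n = 4 each; limma adjusted p = 0.805). The ratio of Csf1 to Csf1r was 0.0280 to 0.0709 across microglia and 0.00430 to 0.0225 across macrophages. Il34, the other ligand of CSF1R, did not exceed 0.514 FPKM in any library.

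Itgax encodes the integrin subunit CD11c, which pairs with the beta2 subunit to form complement receptor 4 and is widely used to mark dendritic cells. It stood at 5.66, 2.77, 11.5 and 3.05 FPKM in microglia 1 to 4 and at 46.5, 64.9, 40.8 and 56.1 FPKM in macrophages 5 to 8. Every macrophage library was above every microglial one, and the macrophages varied 1.59-fold, or 1.83-fold after rescaling to an equal sum. The log2 fold change was 3.13 ± 0.59 (SE; limma adjusted p = 0.00277), one of 154 genes called higher, 1.65% of those tested. It was called under 20 of 21 alternatives and lost its call with a term for Y-linked expression, where the fold change was 3.54 (adjusted p = 0.116). In microglia 4 Itgax was at 3.05 FPKM. Y-linked transcripts summed to 0.0533 FPKM in that library and to 0.0107 to 1.97 FPKM across macrophages. The cause of the lost call was not tested.

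The integrin partners of Itgax were not called. Itgb2, the shared beta2 subunit, was at 139 ± 69.0 FPKM for microglia and 104 ± 44.3 for macrophages (SD, n = 4 each; limma adjusted p = 0.794). Itgam, the CD11b subunit of complement receptor 3, stood at 112, 63.6, 83.5 and 118 FPKM in microglia and at 29.2, 42.8, 12.3 and 39.9 FPKM in macrophages (log2 fold change -1.67, adjusted p = 0.109). None of the 7 tested genes of the list of beta2 integrin subunits and ligands was called by limma, and the median was 0.57. An unadjusted p below 0.05 was reached by 3 of the 7 (15.0% over all tested genes). Of the summed FPKM of the alpha subunits Itgax, Itgam, Itgal and Itgad, Itgax held 4.72%, 4.12%, 11.9% and 2.46% in microglia and 50.2%, 47.7%, 67.7% and 51.7% in macrophages. Itgam held at least 86.1% in every microglial library and at most 36.8% in macrophages. These shares do not depend on library scaling, and they contain the Itgax values already described.

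**Figure D3:**
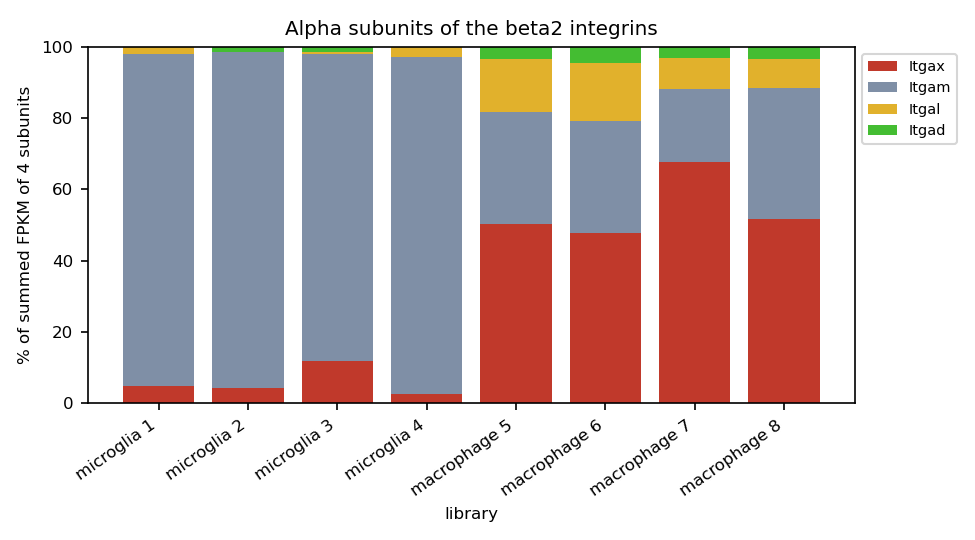
Share of each alpha subunit in the summed FPKM of Itgax, Itgam, Itgal and Itgad, 1 bar per library. Itgax holds at most 11.9% in microglia and at least 47.7% in macrophages.

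Dendritic cell markers moved in part with Itgax. The 10 listed markers summed to 2.58 to 35 FPKM across microglia and 17.8 to 193 across macrophages. Of 4 tested, 1 was called higher (1.65% over all tested genes) and 0 lower. That marker was Ccl17, a chemokine of dendritic cells, at 0.164 FPKM or less in microglia and at 48.0, 97.5, 1.07 and 20.4 in macrophages (limma adjusted p = 0.00575). Ccl17 met the filter on low values only through the macrophage libraries, so it had no test with a macrophage library left out. Its call was lost with no filter (adjusted p = 0.288) and with the Y-linked term (0.546). All 4 tested markers had positive log2 fold changes with an unadjusted p below 0.05 (15.0% over all tested genes), at a median of 1.96. In macrophage 7, where Itgax was at 40.8 FPKM, the markers summed to 17.8 FPKM, of which the transcription factor Batf3 held 12.3, and Ccr7, Flt3 and Ccl22 stood at 0.165, 0.0242 and 0.0779; these 4 markers were singled out after their values were seen. Of 10 listed neutrophil markers 9 were found and 3 were tested. Among those found, 4 stayed below 1 FPKM in all libraries and 3 read 0 in all macrophages. The 3 tested, S100a8, S100a9 and Retnlg, read 0 in all 4 microglial tables. They were called higher (1.65% over all tested genes), at 55.0 ± 31.0, 44.8 ± 28.1 and 21.7 ± 27.5 FPKM in macrophages (SD, n = 4 each). These 3 also met the filter only through the macrophages and had no test with a macrophage library left out. Retnlg lost its call with no filter (adjusted p = 0.359), quantile normalization (0.0673), array weights (0.0542) and the Y-linked term (0.277). The part of dendritic cells and neutrophils in the Itgax level was not tested.

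Gpnmb encodes a transmembrane glycoprotein of lysosomes and melanosomes. It was the most variable member in macrophages, at 181, 76.0, 9.76 and 171 FPKM, and stood at 27.2, 3.61, 53.4 and 16.9 FPKM in microglia. Macrophage 7 lay below microglia 1, 3 and 4, while the other 3 macrophage libraries exceeded all microglia. The difference of 1.92 ± 0.79 (SE; 95% interval 0.29 to 3.55) did not pass (limma adjusted p = 0.252). It passed without macrophage 7 (2.83, adjusted p = 0.0365), the library with little Ccr2, where 2.02% of tested genes were called, and with limma's array weights (2.65, adjusted p = 0.000511), where 11.5% were. Gpnmb is also expressed by pigment cells, and of 8 pigment epithelium and melanocyte markers found, 4 stayed below 1 FPKM in all libraries. Their sum was 38.2 FPKM in microglia 2, between 0.716 and 2.77 in the other microglia, and between 1.52 and 6.14 in macrophages. The part of pigment cells in the Gpnmb level was not tested.

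Cd9 encodes a tetraspanin, a small membrane protein with 4 membrane-spanning segments that organises other proteins at the cell surface. Its levels were 1047, 903, 843 and 687 FPKM in microglia and 191, 267, 73.0 and 186 FPKM in macrophages. The lowest microglial library, microglia 4, was above the highest macrophage library. The log2 fold change was -2.40 ± 0.47 (SE; limma adjusted p = 0.0042), one of 65 genes called lower, 0.695% of those tested. The call held in 18 of 21 alternatives. It was lost with no filter on low values (adjusted p = 0.111), without microglia 2 and 3 together (0.0619) and with the Y-linked term (0.273), at log2 fold changes of -2.40, -2.38 and -2.42.

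Cd63, the tetraspanin of late endosomes and exosomes, stood at 955, 969, 1098 and 913 FPKM in microglia and at 452, 930, 503 and 237 FPKM in macrophages. The microglial libraries lay within 1.20-fold of each other, the narrowest range of any member, and macrophage 6 alone overlapped them. Cd63 had a log2 fold change of -1.05 ± 0.46 (SE; 95% interval -2.0 to -0.11; limma adjusted p = 0.282). Of 13 other tetraspanins and partners tested, 3 were called lower (0.695% over all tested genes) and 0 higher, with a median of -0.99 against 0.37 over all tested genes. Cd81, a close partner of Cd9 at the surface, stood at 2746, 3593, 2786 and 2792 FPKM in microglia and at 250, 917, 617 and 132 FPKM in macrophages (-3.00 ± 0.52 SE, adjusted p = 0.00111). Tspan7 was at 50.4 ± 11.9 FPKM for microglia and 3.91 ± 2.89 for macrophages (SD, n = 4 each; adjusted p = 0.00122), and Cd37, a tetraspanin of leukocytes, at 81.0 ± 9.90 and 17.0 ± 6.17 (adjusted p = 0.0163). The Cd37 call was lost without microglia 1 (adjusted p = 0.064), microglia 2 and 3 together (0.0807), or macrophage 5 or 8 (0.0787 and 0.0972). With the Y-linked term the calls of Cd81, Tspan7 and Cd37 were lost (adjusted p = 0.218, 0.218 and 0.637). Cd81 was also lost with no filter (0.16). Of those not called, Cd53 was at 155 ± 28.5 and 111 ± 53.1 FPKM (adjusted p = 0.611), and Tspan33 was at 1.37 ± 2.44 and 8.71 ± 5.80 (adjusted p = 0.118). Both were singled out after their values were seen.

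**Figure D4:**
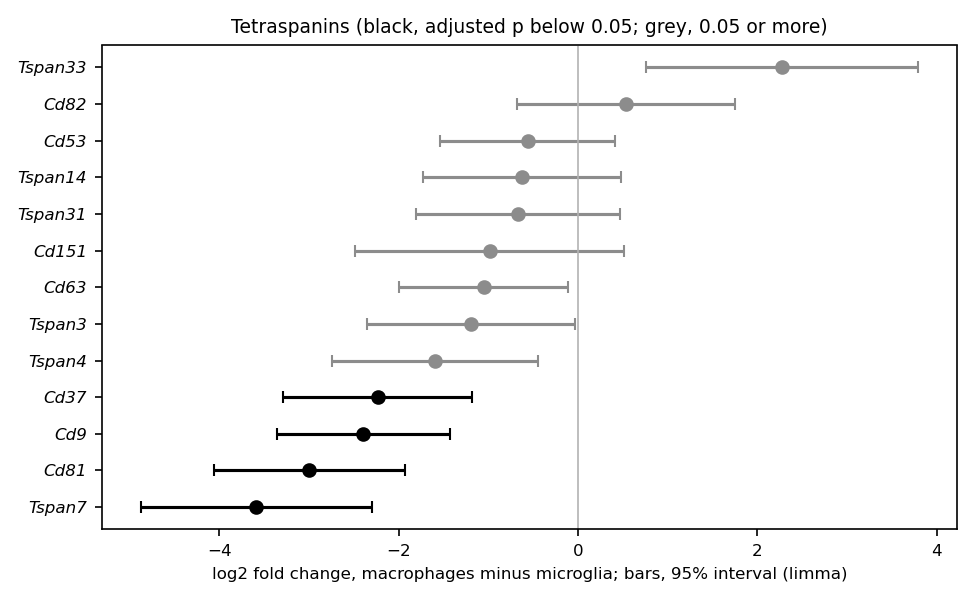
Log2 fold change of 13 tetraspanins, Cd9 and Cd63 among them, with 95% intervals from limma, black where the adjusted p was below 0.05. Tspan7, Cd81, Cd9 and Cd37 are the 4 in black, all lower in macrophages.

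Ank encodes a membrane protein that moves phosphate compounds out of the cell and so supplies extracellular pyrophosphate. It stood at 22, 18.8, 31.0 and 25.7 FPKM in microglia and at 1.41, 13.3, 9.43 and 10.4 FPKM in macrophages. The groups did not overlap, and macrophage 5 was far below the other macrophages. Ank had a log2 fold change of -1.64 ± 0.64 (SE; 95% interval -2.97 to -0.31), not called over all genes (limma adjusted p = 0.227), and it was -1.06 without macrophage 5 (adjusted p = 0.672). The exact permutation test of Ank alone, two-sided, gave p = 0.0286, the smallest possible, which lack of overlap by itself fixes (7.63% of tested genes had no overlap). Of 5 tested genes of phosphate and pyrophosphate handling, 1 was called higher (1.65% over all tested genes) and 0 lower, with a median of 0.58. It was Nt5e, the ectoenzyme CD73, at most 0.302 FPKM across microglia and 2.05 to 2.62 across macrophages (limma adjusted p = 0.0484). Nt5e met the filter only through the macrophages, so it had no test with a macrophage library left out. Its call was lost with no filter (adjusted p = 0.179), a pseudocount of 0.1 (0.0771) or 5 (0.0767), and the trend option off (0.135). It was also lost by median of ratios (0.0583), quantile normalization (0.90, 0.261) and the Y-linked term (0.69). Without any 1 of the microglial libraries (0.0734 to 0.111) or microglia 2 and 3 together (0.137) it was lost as well.

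Within each population the members varied together only in part. Microglia 2 was the lowest microglial library for 5 members (Apoe, Spp1, Gpnmb, Itgax and Ank) and the highest for 2 (Lgals3 and Csf1). Macrophage 6, with the largest FPKM sum, was the highest macrophage library for 7 members, and macrophage 7, with the smallest sum, was the lowest for 6 and the highest for Apoe. Once libraries were rescaled to an equal sum, macrophage 6 was the highest for 2 members (Lgals3 and Lpl), while macrophage 7 remained the lowest for 5: Spp1, Gpnmb, Cd9, Lpl and Csf1. Monocyte markers were also low there, 345 FPKM in sum against 1251 to 2343 in the other macrophages. On that scale 7 of 10 members had no overlap between populations, with Apoe, Lgals3 and Cd63 added to the earlier 4, against 11.6% of tested genes. Together the 10 members took between 1.23% and 2.93% of the FPKM sum in microglia and between 3.46% and 7.95% in macrophages. Apoe was the larger part of it in every library but microglia 2, where it held 0.549% of the FPKM sum.

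**Figure D5:**
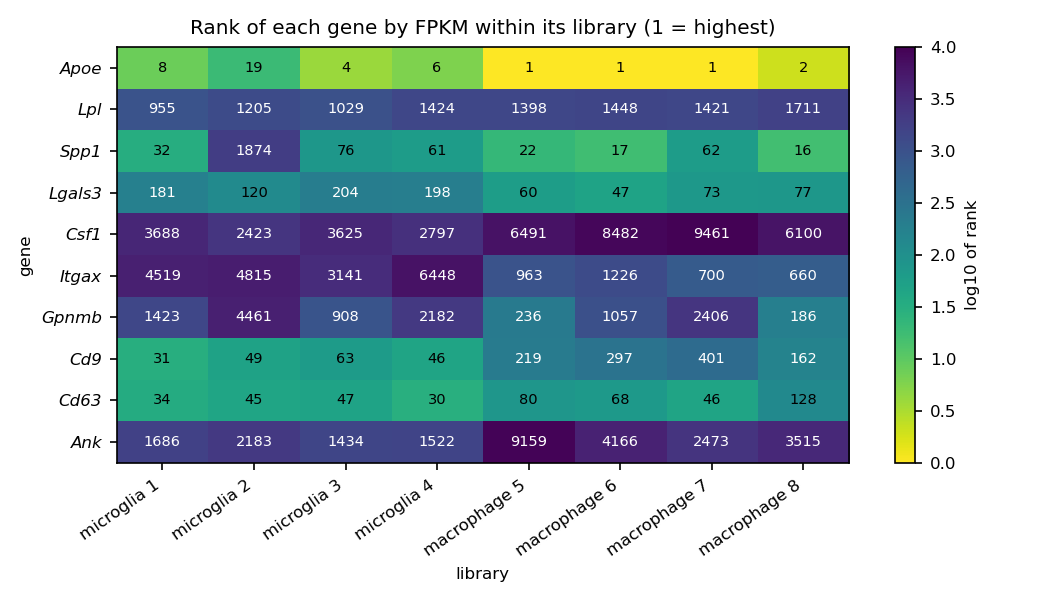
Rank of each gene by FPKM within each library, where 1 is the most abundant symbol, coloured by the log10 of the rank. Apoe ranks 1 or 2 in every macrophage library, Cd9 ranks 31 to 63 across microglia and 162 to 401 across macrophages, and Spp1 drops to 1874 in microglia 2.

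The levels put the members in a different order in each population. By mean FPKM microglia ran Apoe, Cd63, Cd9, Spp1, Lgals3, Lpl, Gpnmb, Ank, Csf1 and Itgax, from 4578 ± 2713 down to 5.75 ± 4.05 FPKM (SD, n = 4). Macrophages ran Apoe, Spp1, Lgals3, Cd63, Cd9, Gpnmb, Itgax, Lpl, Ank and Csf1, from 11239 ± 3416 down to 2.73 ± 1.65 FPKM. In microglia the ranges of neighbours in this order were separate between Apoe and Cd63, Lgals3 and Lpl, and Ank and Csf1, and overlapped for the other neighbours. In macrophages they were separate between Apoe and Spp1 and between Lpl and Ank, and overlapped elsewhere.

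Other injury-associated genes leaned towards microglia. Of 36 tested in a list of 38 that leaves out the members, 9 were called lower in macrophages and 0 higher, with a median log2 fold change of -0.86. Over all tested genes 0.695% were called lower and 1.65% higher, with a median of 0.37. The lists were chosen with earlier results of these data known. By mean over all 8 libraries the most abundant of the 9 were Ctsd, the lysosomal protease cathepsin D, Syngr1, a synaptogyrin of vesicle membranes, and the chemokine Ccl4. Syngr1 was at 781 ± 148 FPKM for microglia and 108 ± 85.0 for macrophages (limma adjusted p = 0.000582), Ccl4 at 768 ± 220 and 153 ± 112 (adjusted p = 0.00455) and Ctsd at 13223 ± 3072 and 3029 ± 1270 (adjusted p = 0.00464; SD, n = 4 each). These calls were lost with no filter (adjusted p = 0.0769, 0.157 and 0.241) and with the Y-linked term (0.201, 0.305 and 0.247). Ccl4 and Ctsd were also lost without microglia 2 and 3 together (0.113 and 0.103), and Ctsd without macrophage 5 (0.0801). Cst7, an inhibitor of cysteine proteases singled out after its values were seen, was at 777 ± 240 and 8.66 ± 8.07 FPKM (log2 fold change -6.78, adjusted p = 7.8e-08). Genes of homeostatic microglia, which usually decline when the injury programme is on, were also lower in part: 5 of 21 tested were called lower and 0 higher, at a median of -1.28. The 3 most abundant were Gpr34, P2ry12 and Ecscr, with P2ry12, a purinergic receptor, at 114 ± 28.2 FPKM for microglia and 15.4 ± 10.5 for macrophages (adjusted p = 0.00254). The P2ry12 call was lost with no filter (adjusted p = 0.0838) and with the Y-linked term (0.218). Gpr34 lost its call with no filter (adjusted p = 0.339), a pseudocount of 0.1 (0.0809), the trend option off (0.0603) and the Y-linked term (0.492). It was also lost without microglia 1 or 4 (0.0784 and 0.0588) or macrophage 5 or 8 (0.0892 and 0.0972).

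The regulators fixed for these genes gave no call. Of 14 tested among 18 genes of Trem2 signalling and lipid sensing, limma called 0, with a median of 0.34. An unadjusted p below 0.05 was reached by 4 of the 14 (15.0% over all tested genes). Tyrobp, the adaptor of the lipid receptor TREM2, was the most abundant, at 3948 ± 2035 FPKM for microglia and 1520 ± 747 for macrophages (SD, n = 4 each; adjusted p = 0.152). Trem2 stood at 423, 462, 500 and 361 FPKM in microglia and 162, 268, 202 and 72.0 in macrophages, with no overlap (adjusted p = 0.124). Nr1h3, the liver X receptor alpha that can activate Apoe, was listed at 0 in all microglia and stood at 6.24, 6.17, 0.209 and 11.6 FPKM in macrophages, below the filter of the test. Trem2 and Nr1h3 were singled out after their values were seen.

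The gene most like a member was sought among 4993 other tested genes averaging 5 FPKM or more, by Pearson r of log2(FPKM + 1) over the 8 libraries. These values describe 8 libraries that share the difference between populations and library scaling, and are given without a test. Cd9 was most like P2ry12 (r = 0.992) and Spp1 most like Nxf1, an mRNA export factor (0.991). For Cd63 it was Aif1 (0.974), which encodes the macrophage protein IBA1, and for Gpnmb Hmgcs1 (0.950), an enzyme of cholesterol synthesis. Other pairs were Apoe with Cln6 (0.955), Lgals3 with Snapc5 (0.965), Lpl with Ggh (0.981), Csf1 with Rps4y2 (0.960) and Ank with Phyhd1 (0.890). Nxf1 stood at 0.0463 FPKM in microglia 2, against 9.67 to 31.0 in the other 7 libraries, so its likeness to Spp1 rests largely on that library.

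Several marker sums of other retinal cells were larger in microglia, in the direction of Cd9, Csf1 and Ank. Photoreceptor markers summed to 27.7 to 221 FPKM across microglia and 8.75 to 69.2 across macrophages. Of 6 tested, 0 were called by limma and 2 had an unadjusted p below 0.05 (15.0% over all tested genes). Markers of Müller glia and astrocytes, cells that also express Apoe and Cd9, summed to 59.5 to 77.3 FPKM across microglia and 10.6 to 33.4 across macrophages. One of 3 tested, the glutamate transporter Slc1a3, was called lower (10.4 ± 6.23 against 0.420 ± 0.532 FPKM; SD, n = 4 each; adjusted p = 0.0165). That call was lost with no filter (adjusted p = 0.13), with the Y-linked term (0.742) and without macrophage 5, 6 or 8 (0.0965, 0.0969 and 0.107). Most of that sum is Glul, which macrophages also express. Of the 10 markers 2 stayed below 1 FPKM in all libraries, Aqp4 (at most 0.372) and Rgr (at most 0.803). The 3 tested all had negative log2 fold changes, with a median of -2.03. Haemoglobin and other erythroid markers summed to 3213 FPKM in microglia 3 and to 215, 227 and 1.16 in microglia 1, 2 and 4. Across macrophages their sum was 0.916 to 26.7 FPKM. Of 3 tested, 1 was called lower (0.695% over all tested genes), Beta-s, an older symbol of Hbb-bs. The Beta-s call (-4.26, limma adjusted p = 0.0462) was lost without microglia 1, 2 or 3 or macrophage 6, 7 or 8 (0.052 to 0.152), at -2.89 without microglia 3, and with the Y-linked term it was -0.38. The call was also lost with no filter (adjusted p = 0.482), a pseudocount of 0.1 (0.237), the trend option off (0.097) and each other scaling (0.0788 to 0.112). Microglia 3, with the largest FPKM sum of the microglia, was the highest of them for 6 members, and after rescaling to an equal sum for 3 (Apoe, Gpnmb and Itgax) and the lowest for 2 (Cd9 and Csf1). Inner retinal neuron markers summed to 11.9 to 26.7 FPKM across microglia and 4.07 to 9.23 across macrophages. Of 3 tested, 0 were called and 1 had an unadjusted p below 0.05 (15.0% over all tested genes). Markers of T and NK cells summed to at most 2.78 FPKM in any library, and 0 of them entered the test. Those of B cells summed to at most 35.6 FPKM, mostly Cd79b, with 0 of 1 tested called. Those of endothelial and mural cells summed to at most 25.2 FPKM, with 0 of 3 tested called. Of 13 tested monocyte markers 8 were called higher (1.65% over all tested genes) and 0 lower, with a median of 3.15. The most abundant of the 8 were Tgfbi, Crip1 and Ly6c2. Tgfbi and Crip1 lost their calls with no filter (adjusted p = 0.16 and 0.118) and with the Y-linked term (0.417 and 0.122). The part of these cells in the members' levels was not tested.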

How the data were processed

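The 8 deposited tables hold FPKM estimated per gene by the authors, per the file headers, with bcl2fastq 1.8.4, Cufflinks 2.1.1 and build mm9, per the submitters' processing notes. For the aligner and gene models: not given in the sources used here. Rows sharing a symbol were summed (23021 rows, 22558 symbols) and 9 symbols with a failed estimate were left out. FPKM keeps differences in library composition, so scaling was varied. FPKM are not counts. Depth was estimated from the most frequent low value, with an assumed fragment length of 150 bases, and is approximate. It limits low values such as those of Csf1.

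Genes reaching 1 FPKM in 4 or more libraries entered limma 3.58.1 (R 4.3.3) as log2(FPKM + 1), its trend option on, no covariate, two-sided p-values and Benjamini-Hochberg adjustment over all genes tested. Called means adjusted p below 0.05. The fold change understates the change of low genes. The fit was tested on simulated data. Python 3.11.15, pandas 2.3.3, numpy 2.4.6, scipy 1.17.1 and matplotlib 3.10.9 were used.

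The members, 20 gene lists and alternatives were chosen with earlier results of these data known. Of 253 listed symbols 249 were found, 6 by an older symbol; the others are not analysed here. Text names every member, in each list up to 3 called genes with the highest mean FPKM or else the most abundant tested gene, and for each member the gene most like it, which for Itgax is not reported here. Alternatives changed the pseudocount, filter, scaling, handling of repeated symbols, trend, array weights, a Y-linked term and the libraries included. Strand is not stated, but no other locus in the tables overlaps a member's.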

Additional observations from a re-analysis of the deposited data

Results flagged for a closer look

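Dixon's gap test was applied to FPKM of the members and the genes named from the lists, in 73 groups of 4 libraries, where chance alone marks about 1 group in 20; 5 groups had a library far from the other 3, and none of them was a member's. Apoc2 stood at 102 FPKM in microglia 3 against 13.5 to 25.7 in the other microglia. Beta-s, a haemoglobin gene, stood at 776 FPKM in microglia 3 against 0.473 to 62.1. Ccl17 was at 0.164 FPKM in microglia 3 and listed at 0 in the other microglia. Cd81 was at 3593 FPKM in microglia 2 against 2746 to 2792. Itga4 was at 0.564 FPKM in microglia 4 against 0.0373 to 0.0859.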

How the results depend on the processing

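Over 21 alternatives no member changed the sign of its fold change. The 219 genes called became 136 with a pseudocount of 0.1, 50 with no filter, 132 with a filter at 5 FPKM, 335 after rescaling to an equal sum, 1075 with array weights and 25 with the Y-linked term, and between 78 and 259 with 1 library left out. The 2 members called became 1 with no filter (Itgax), 4 after rescaling to an equal sum (Apoe, Cd9, Itgax and Lgals3), 5 after quantile normalization (Csf1 as well), 7 with array weights, 1 without microglia 2 and 3 together (Itgax), and 0 by limma with the Y-linked term, where 4 had an unadjusted p below 0.05. With 1 library left out it was 2 to 3. Cd9 and Itgax were called in each of the 8 leave-one-out fits. In the exact permutation test, run on single genes, Csf1 and Ank also reached p = 0.0286, as any gene without overlap does. The cause of these changes was not tested.

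Calls fell by over 1.5 times without macrophage 5 (84), 6 (111) or 8 (78). The share of calls that were higher in macrophages, 70.3%, was 59.9% with upper-quartile factors, 54.3% by median of ratios, 53.4% by quantile normalization, and 29.7% without macrophage 6. The median log2 fold change of all tested genes, 0.37, became 0.48 after rescaling to an equal sum, 0.28, 0.12 and -0.03 under those other scalings. Other listed genes also changed sign under some alternatives. Of those named by rule, 2 did: Cd79b stood at 0.48 with a pseudocount of 0.1 and ranged from -1.22 to 0.50 with 1 library left out, positive without microglia 1 (0.08), microglia 4 (0.50) or macrophage 7 (0.04). Itgb2 ranged from -0.82 to 0.025, positive without macrophage 7. No paired analysis was possible because the populations share no replicate number. Depth per gene is not recorded in FPKM, so no counting interval is given.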
